A study of Mus musculus with 20 samples.

Results

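Layer 6b is the deepest sheet of the cerebral cortex, lying on the white matter, and in rodents it holds the surviving cells of the subplate, the early-born layer that guides growing thalamic and cortical axons before birth. Its neurons are few, are known in rodents to project widely within the cortex and to higher-order thalamus, and are recognised by a short list of genes. The 5 genes described here are Ctgf, Cplx3, Nxph4, Moxd1 and Nr4a2, of 25317 gene identifiers in the count table. They were taken by name and matched to their Ensembl identifiers, with Ctgf carried in the annotation under its newer symbol, Ccn2.

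Each library came from the cortex of a single mouse of C57BL/6 background aged 3 months. Heterozygotes carried a heterozygous deletion of Foxp2, the gene of a forkhead transcription factor of deep-layer neurons, and wild types did not. Ribosomes bearing a green fluorescent protein (GFP) tag were captured with an antibody (bacTRAP), which gives the immunoprecipitate (IP), and lysate kept back before capture gave the Input. The comparison covered 3 heterozygous IP and 3 heterozygous Input libraries (het729, het786, hetBT13), and 5 wild-type IP and 5 wild-type Input libraries (wt734, wt736, wt785, wtBT13, wtBT14). The cells and promoter that carry the tag, and any driver of the deletion, are not given in the sources used here, and all 4 groups share the procedure. IP levels are therefore levels in the ribosome-bound RNA of an unnamed set of cells, and because these are bulk samples, fewer cells of a type and less RNA per cell cannot be told apart.

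Of the 5 products, Ctgf is a secreted CCN protein of the extracellular matrix and Nxph4 is a secreted neurexophilin, a family that binds alpha-neurexins at synapses. Cplx3 is a complexin, which binds the SNARE complex and tunes synaptic vesicle release. Nr4a2 (also Nurr1) is an orphan nuclear receptor known for its role in midbrain dopamine neurons, and it is also switched on by neuronal activity. Moxd1 belongs to the copper-dependent monooxygenases related to dopamine beta-hydroxylase.

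In mm10, Ctgf (ENSMUSG00000019997) lies on chromosome 10 from 24595442 to 24598683 on the plus strand, and Moxd1 (ENSMUSG00000020000) on the same chromosome from 24223517 to 24302790, plus strand. The end of Moxd1 and the start of Ctgf are 292651 bases apart, with 0 protein-coding genes between them. Nxph4 (ENSMUSG00000040258) lies on chromosome 10 from 127525473 to 127534559, Cplx3 (ENSMUSG00000039714) on chromosome 9 from 57599992 to 57606281, and Nr4a2 (ENSMUSG00000026826) on chromosome 2 from 57106830 to 57124003, all 3 on the minus strand. All 5 are protein-coding. Ctgf shares 665 exonic bases with the antisense transcript Gm15270, which had 0 to 13 counts per library against 39 to 273 for Ctgf. The libraries do not mark strand, so reads in the shared stretch cannot be assigned to either gene with certainty.

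Promoter sequence was at hand for 3 of the 5 genes. It is printed as a description. Cplx3 and Nr4a2 were both higher in IP than in Input while Moxd1 was lower, and whether promoter sequence bears on this was not tested. The lines give the 250 bases before the start site from RefSeq (GRCm38.p6), 5′ to 3′ on the strand of the gene, with capitals marking TGACG or its complement, the core of a cyclic AMP response element (CRE).

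Cplx3, chr9:57606282-57606531, minus strand: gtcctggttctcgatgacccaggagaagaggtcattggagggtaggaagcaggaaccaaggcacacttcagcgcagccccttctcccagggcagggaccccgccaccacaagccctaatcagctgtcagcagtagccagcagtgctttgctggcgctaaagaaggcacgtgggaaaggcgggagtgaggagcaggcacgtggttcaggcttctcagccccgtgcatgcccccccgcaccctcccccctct
Moxd1, chr10:24223267-24223516, plus strand: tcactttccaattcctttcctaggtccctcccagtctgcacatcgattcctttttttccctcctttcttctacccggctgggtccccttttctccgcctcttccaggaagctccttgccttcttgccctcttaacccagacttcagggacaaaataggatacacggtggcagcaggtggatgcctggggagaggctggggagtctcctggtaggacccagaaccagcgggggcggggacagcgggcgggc
Nr4a2, chr2:57124004-57124253, minus strand: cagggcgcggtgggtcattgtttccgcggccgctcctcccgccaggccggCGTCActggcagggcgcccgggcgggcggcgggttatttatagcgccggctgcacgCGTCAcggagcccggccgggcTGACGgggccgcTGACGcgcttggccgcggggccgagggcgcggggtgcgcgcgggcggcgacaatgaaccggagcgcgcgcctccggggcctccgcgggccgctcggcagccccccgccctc

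The Nr4a2 window was the richest in CpG. Its GC content was 80.0% with 44 CpG, that of Cplx3 was 62.8% with 9 CpG and that of Moxd1 was 58.4% with 8 CpG. Over the same stretch of all 32851 RefSeq promoters the median GC content was 52.4% and the median CpG count 6. Searched on both strands, TGACG was found 4 times before Nr4a2, at 200, 144, 123 and 111 bases before the start, and not in the other 2 windows. At least 1 TGACG occurred in 17.8% of all promoters, a set with a far lower median CpG count than the Nr4a2 window. TGACG itself contains a CpG, so this share is not a matched background for the 4 matches. A forkhead motif, TGTTTAC (3.17% of all promoters), and a nuclear receptor element, AAAGGTCA (1.34%), were in none of the 3. These are matches of letters and do not show that a factor binds.

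Heterozygous libraries held between 4917886 and 5337469 counts in IP and between 2782934 and 4072270 in Input. Wild-type libraries held between 4061562 and 5754169 counts in IP and between 3391291 and 3934152 in Input. Foxp2 itself averaged 46.5 ± 12.9 CPM (library-scaled counts, with edgeR's TMM factors) in heterozygous IP and 69.6 ± 21.2 CPM in wild-type IP, and 27.8 ± 3.51 CPM in heterozygous Input against 47.0 ± 10.8 CPM in wild-type Input (SD, n = 3 and 5). The genotype difference of Foxp2 did not pass in either fraction at an edgeR adjusted p below 0.05. The library labelled het729 IP stood apart, with 0.398% of counts from mitochondrial genes against 0.0616% to 0.127% in the other IP libraries, so values without that animal are given below.

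Cplx3, Nr4a2 and Ctgf were higher in IP than in Input in both genotypes, Nxph4 was higher in wild types, and Moxd1 was lower in both. In edgeR's quasi-likelihood test with animal as a block and Benjamini-Hochberg adjustment over 14797 genes, 3 of the 5 genes passed as higher in heterozygotes, beside 22.6% of all genes tested, and 1 of the 5 passed as lower, beside 22.1%. In wild types 4 of the 5 passed as higher, beside 28.5% of all genes tested, and 1 of the 5 as lower, beside 25.6%. Each of the 5 genes lay on the same side of Input in all 8 animals, though Nxph4 in het729 was nearly level, at 1.01 times Input. The share of all genes tested that kept 1 side in every animal was not counted. Nor was the share whose IP and Input libraries do not overlap, which is described for single genes below. Scaling by library totals without TMM factors, an alternative added after the values were seen, gave 5757 genes higher and 1900 lower in heterozygotes (3348 and 3274 with TMM) and 6379 higher and 2377 lower in wild types (4223 and 3787 with TMM), and the calls for the 5 genes were the same.

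**Figure D1:**
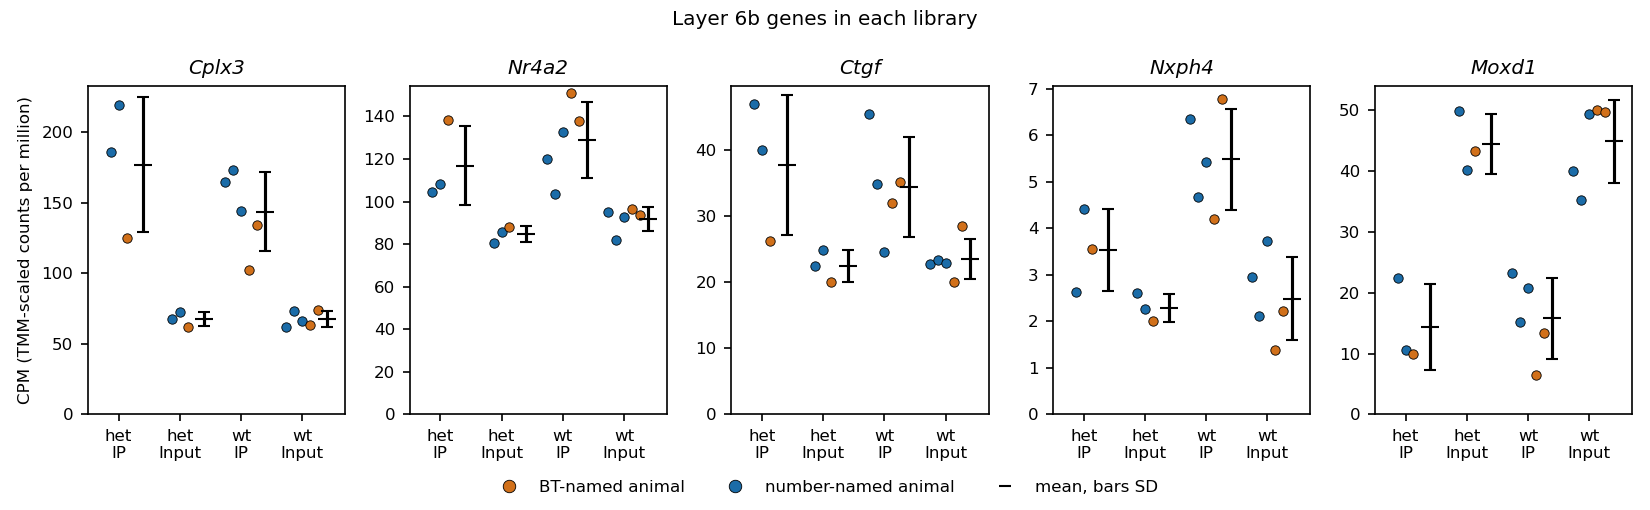
Levels of the 5 genes in CPM (vertical axes, each from 0) in heterozygous (het) IP and Input and wild-type (wt) IP and Input libraries; each point is 1 library, coloured by whether the animal has a BT or a number-only name, and bars are mean ± SD. Cplx3 shows the widest gap above Input, and Moxd1 in IP stays at or below 23.2 CPM while its Input is never under 35.3 CPM.

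Among the secreted products, Ctgf had 47.0, 40.0 and 26.2 CPM in the IP of het729, het786 and hetBT13, against 22.4, 24.9 and 20.1 CPM in their Input. In wild types (wt734, wt736, wt785, wtBT13 and wtBT14, in this order throughout) it had 45.5, 34.9, 24.6, 32.1 and 35.2 CPM in IP, against 22.9, 23.4, 23.0, 20.04 and 28.5 CPM in Input. The heterozygous fractions did not overlap, whereas in wild types the IP of wt785 lay below the Input of wtBT14. On the log2 scale Ctgf rose in IP by 0.73 (SE 0.18, edgeR adjusted p = 0.00206) in heterozygotes and by 0.55 (SE 0.14, adjusted p = 0.00178) in wild types. Without het729 the heterozygous value was 0.53 and no longer passed (edgeR adjusted p = 0.0627).

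Nxph4 was the scarcest of the 5, with 15 to 38 counts per IP library and 5 to 13 per Input library. It had 2.63, 4.41 and 3.55 CPM in heterozygous IP, against 2.61, 2.27 and 2.01 CPM in heterozygous Input (het729, het786, hetBT13). Wild types had 6.34, 4.68, 5.42, 4.21 and 6.79 CPM in IP, against 2.96, 2.12, 3.73, 1.39 and 2.22 CPM in Input. The het729 pair was nearly level, and every wild-type IP library lay above every wild-type Input library. The log2 fold change was 0.57 in heterozygotes (SE 0.39, edgeR adjusted p = 0.241), which did not pass, and 1.15 in wild types (SE 0.28, adjusted p = 0.00132), which did. The heterozygous interval of the fold, 0.848 to 2.60 (95%), includes the wild-type value of 2.21. Without het729 it was 0.87 on the log2 scale and still did not pass.

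Cplx3, the presynaptic member, had the largest rise of the 5 in heterozygotes. It had 186, 219 and 125 CPM in heterozygous IP, against 67.8, 72.2 and 62.2 CPM in heterozygous Input. In wild types it had 165, 173, 144, 102 and 134 CPM in IP, against 61.9, 73.0, 66.1, 63.2 and 74.1 CPM in Input. IP and Input did not overlap in either genotype. The log2 fold change was 1.36 in heterozygotes (SE 0.13, edgeR adjusted p = 7.7e-08), exceeded by 2.01% of all genes tested, and 1.08 in wild types (SE 0.10, adjusted p = 1.79e-08), exceeded by 3.64%. Without het729 the heterozygous log2 fold change was 1.30 and still passed.

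Nr4a2, the transcription factor, had a smaller but even rise. It had 104, 108 and 138 CPM in heterozygous IP, against 80.6, 85.5 and 87.9 CPM in heterozygous Input. Wild types had 120, 104, 133, 151 and 138 CPM in IP, against 94.9, 82.0, 92.5, 96.3 and 93.5 CPM in Input. The fractions did not overlap in either genotype. Its log2 fold change was 0.45 in heterozygotes (SE 0.10, edgeR adjusted p = 0.00129) and 0.49 in wild types (SE 0.08, adjusted p = 2.11e-05), and without het729 the heterozygous value was 0.48, which passed.

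Moxd1, the enzyme, went the other way in all 8 animals. It had 22.5, 10.7 and 9.98 CPM in heterozygous IP, against 49.8, 40.2 and 43.4 CPM in heterozygous Input. Wild types had 23.2, 15.1, 20.8, 6.42 and 13.4 CPM in IP, against 40.1, 35.3, 49.4, 50.1 and 49.7 CPM in Input. Its IP level was 0.315 ± 0.119 of Input in heterozygotes and 0.365 ± 0.172 in wild types (SD of the ratio, n = 3 and 5 animals). The log2 fold change was -1.68 in heterozygotes (SE 0.32, edgeR adjusted p = 0.00116) and -1.52 in wild types (SE 0.24, adjusted p = 0.000208), and 97.9% and 97.7% of genes tested lay above it. Without het729 the heterozygous value was -2.03, which passed.

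Per length of transcript, the order of levels changed between the fractions. In IP, Cplx3 averaged 59.8 and 48.7 CPM per kb, Nr4a2 28.8 and 31.8, Ctgf 13.2 and 12.1, Moxd1 4.49 and 4.94, and Nxph4 2.11 and 3.28. In Input, Cplx3 averaged 22.8 and 22.9 CPM per kb in heterozygotes and wild types, Nr4a2 20.9 and 22.6, Moxd1 13.9 and 14.0, Ctgf 7.86 and 8.23, and Nxph4 1.37 and 1.48. Neighbours overlapped between libraries for Cplx3 and Nr4a2 in wild-type IP, where Cplx3 reached down to 34.6 CPM per kb and Nr4a2 up to 37.1, and in Input of both genotypes. Moxd1 and Nxph4 also overlapped in wild-type IP. Moxd1 thus stood below Ctgf in IP and above it in Input.

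**Figure D2:**
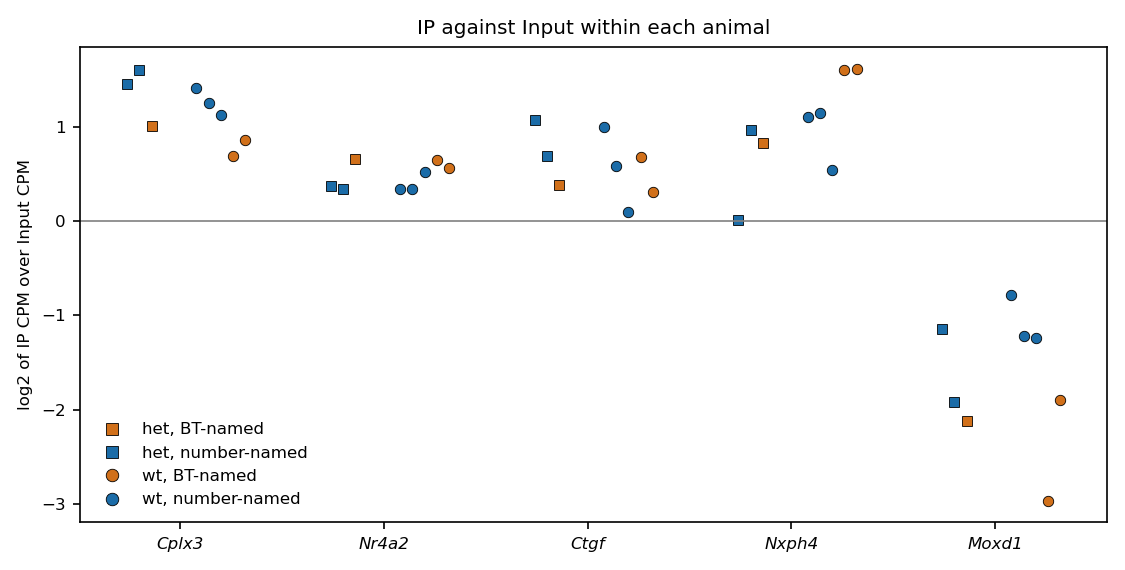
Log2 of the IP CPM over the Input CPM (vertical axis) for the 5 genes in each of 8 animals; squares are heterozygotes, circles wild types, and colour gives the form of the animal's name. All points for Cplx3, Nr4a2, Ctgf and Nxph4 lie above 0 and all for Moxd1 below it, from -0.79 to -2.96.

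Of the 13 other genes listed for layer 6b and subplate, 12 were tested, and they did not move as a block. In each genotype 6 rose, 3 fell and 3 did not pass. Of all genes tested, 22.6% were higher and 22.1% lower in heterozygotes, and 28.5% and 25.6% in wild types. The 3 of 12 that fell were thus close to the share over all genes, and the same shares stand beside each list count below. The median log2 fold change of the list was 0.69 in heterozygotes and 0.79 in wild types, beside 0.04 and 0.03 over all genes tested. Svil, at 1 to 16 counts per library in these groups, was not tested. Nxph3, a secreted neurexophilin like Nxph4, rose by 1.93 on the log2 scale in heterozygotes and 2.21 in wild types (edgeR adjusted p = 3.97e-06 and 2.38e-08). Trh, the precursor of thyrotropin-releasing hormone, rose by 1.89 and 1.81, and Hs3st4, a heparan sulfate sulfotransferase, by 1.58 and 1.22. The other 3 that rose, Inpp4b, Cdh18 and Zfpm2, are named to complete the count after their values were seen. Those that fell were Lpar1, a lysophosphatidic acid receptor (-1.96 and -1.65), Drd1, the D1 dopamine receptor (-0.80 and -0.82), and Kcnab1, a potassium channel subunit (-0.72 and -0.47). Lpar1, like Moxd1, is thus a layer 6b marker that was lower in IP.

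Markers of the neighbouring layer 6 corticothalamic neurons rose in 4 of 6 genes in heterozygotes and 3 of 6 in wild types, with none lower. Ntsr1, the neurotensin receptor that defines these cells, rose by 3.55 and 3.09 on the log2 scale (edgeR adjusted p = 8.05e-10 and 9.71e-12), and Tle4, a corepressor, by 1.26 and 1.23. Their summed level was 664 to 879 CPM in heterozygous IP against 452 to 497 CPM in heterozygous Input, and 581 to 850 CPM in wild-type IP against 428 to 517 CPM in wild-type Input. Summed over the 13 other layer 6b genes, the level was 309 to 392 CPM in heterozygous IP against 401 to 453 CPM in heterozygous Input, and 350 to 379 CPM in wild-type IP against 373 to 470 CPM in wild-type Input. Kcnab1, the most abundant of them, made up 170.1 CPM of the mean in heterozygous IP against 279.7 CPM in heterozygous Input, and 188 CPM in wild-type IP against 263 CPM in wild-type Input. The sum and the median thus differed in sign.

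Several of the 5 genes are also expressed outside layer 6b, and markers of those cells are given beside them. Claustrum and endopiriform genes, which share Nr4a2, rose in 0 of 5 tested and fell in 4 in heterozygotes and 3 in wild types, with Synpr at -1.19 and -0.998. Their sum was 465 to 568 CPM in heterozygous IP against 868 to 941 CPM in heterozygous Input, and 510 to 595 CPM in wild-type IP against 795 to 906 CPM in wild-type Input. Lamp5-type interneuron genes, which share Cplx3, fell in 4 of 6 in each genotype, and 1, Reln, rose by 1.98 and 2.19. Their sum was 905 to 978 CPM in heterozygous IP against 1367 to 1512 CPM in heterozygous Input, and 933 to 1018 CPM in wild-type IP against 1284 to 1402 CPM in wild-type Input. Id2 and Gad1 were the most abundant of the Lamp5-type list, at 268 and 329 CPM in wild-type IP against 508 and 410 CPM in wild-type Input. The part of claustrum, endopiriform and Lamp5-type cells in the Nr4a2 and Cplx3 results was not tested.

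Fibroblast and meningeal genes, which share Ctgf, were scarce. Of 4 tested, Dcn rose by 0.97 in heterozygotes and 1.18 in wild types, and Igf2 fell by 2.22 and 1.08, with Col1a2 also lower in wild types. Their sum was 23.0 to 31.6 CPM in heterozygous IP against 19.1 to 23.0 CPM in heterozygous Input, and 23.7 to 55.8 CPM in wild-type IP against 20.4 to 26.4 CPM in wild-type Input. Col3a1 was at 0 in all heterozygous IP libraries. Most of the sum was Dcn, at 22.7 CPM in heterozygous IP against 11.3 CPM in heterozygous Input and 33.2 CPM in wild-type IP against 13.9 CPM in wild-type Input. The other 3 tested genes had log2 fold changes below 0 in both genotypes, and the median of the 4 was -0.81 in heterozygotes and -0.72 in wild types, so the list's median ran opposite to its sum and to Ctgf. The part of these cells in the Ctgf result was not tested.

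Markers of several other cell types moved the way Moxd1 and Lpar1 did. Astrocyte genes fell in 5 of 6 and rose in 1 in each genotype, with medians of -1.08 in heterozygotes and -0.99 in wild types. Microglial genes fell in 5 of 6 in heterozygotes and 4 of 6 in wild types, with medians of -1.40 and -1.30 and 0 higher. Oligodendrocyte genes fell in 5 of 6 in each genotype, with medians of -2.13 and -1.92 and Mog, a myelin glycoprotein, at -2.09 and -1.70. Their sum was 613 to 1051 CPM in heterozygous IP against 2849 to 3864.5 CPM in heterozygous Input, and 722 to 1025 CPM in wild-type IP against 3026 to 4109 CPM in wild-type Input. Striatal genes fell in 5 of 6 in heterozygotes and 6 of 6 in wild types, with Penk at -1.52 and -1.35. Their sum was 441 to 790 CPM in heterozygous IP against 1536 to 1704 CPM in heterozygous Input, and 456 to 619 CPM in wild-type IP against 1296 to 1679 CPM in wild-type Input. No defining marker of these lists was at 0 in a group, and the part of these cells in the falls of Moxd1, Lpar1 and Drd1 was not tested.

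Relatives of the 5 genes moved in both directions, beside 22.6% of all genes higher and 22.1% lower in heterozygotes. In wild types these shares were 28.5% and 25.6%. Among complexins and the release machinery, Cplx3 was the only gene of 8 tested that rose, and 6 fell in each genotype. Cplx1, a complexin found in many brain neurons, fell by 0.89 in heterozygotes and 0.99 in wild types, and Snap25, a SNARE protein, by 1.10 and 1.13. Cplx2 did not pass (-0.19 and -0.23, edgeR adjusted p = 0.317 and 0.0937). The neurexophilins were split, with Nxph3 higher as above and Nxph1 lower by -1.34 and -1.11, while Nxph2 did not pass (-0.31 and -0.74). Of the neurexins, their binding partners, Nrxn2 rose by 0.75 and 0.49 and Nrxn3 by 0.38 and 0.40.

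In the CCN family Ccn1 rose by 1.03 and 0.60 and Ccn3 by 0.55 and 0.77, so 3 of 4 tested genes including Ctgf were higher and none lower. Ccn4 did not pass (0.64 and -0.25). Nr4a3, a close relative of Nr4a2, rose by 1.44 and 1.07, while Nr4a1 did not pass (0.27 and 0.00). Among retinoid X receptors, which pair with Nr4a2, Rxrb rose by 0.59 and 0.57 and Rxrg fell by 1.36 and 1.61. Pam, the other tested copper monooxygenase of peptide processing, rose by 0.54 and 0.61, opposite to Moxd1.

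**Figure D3:**
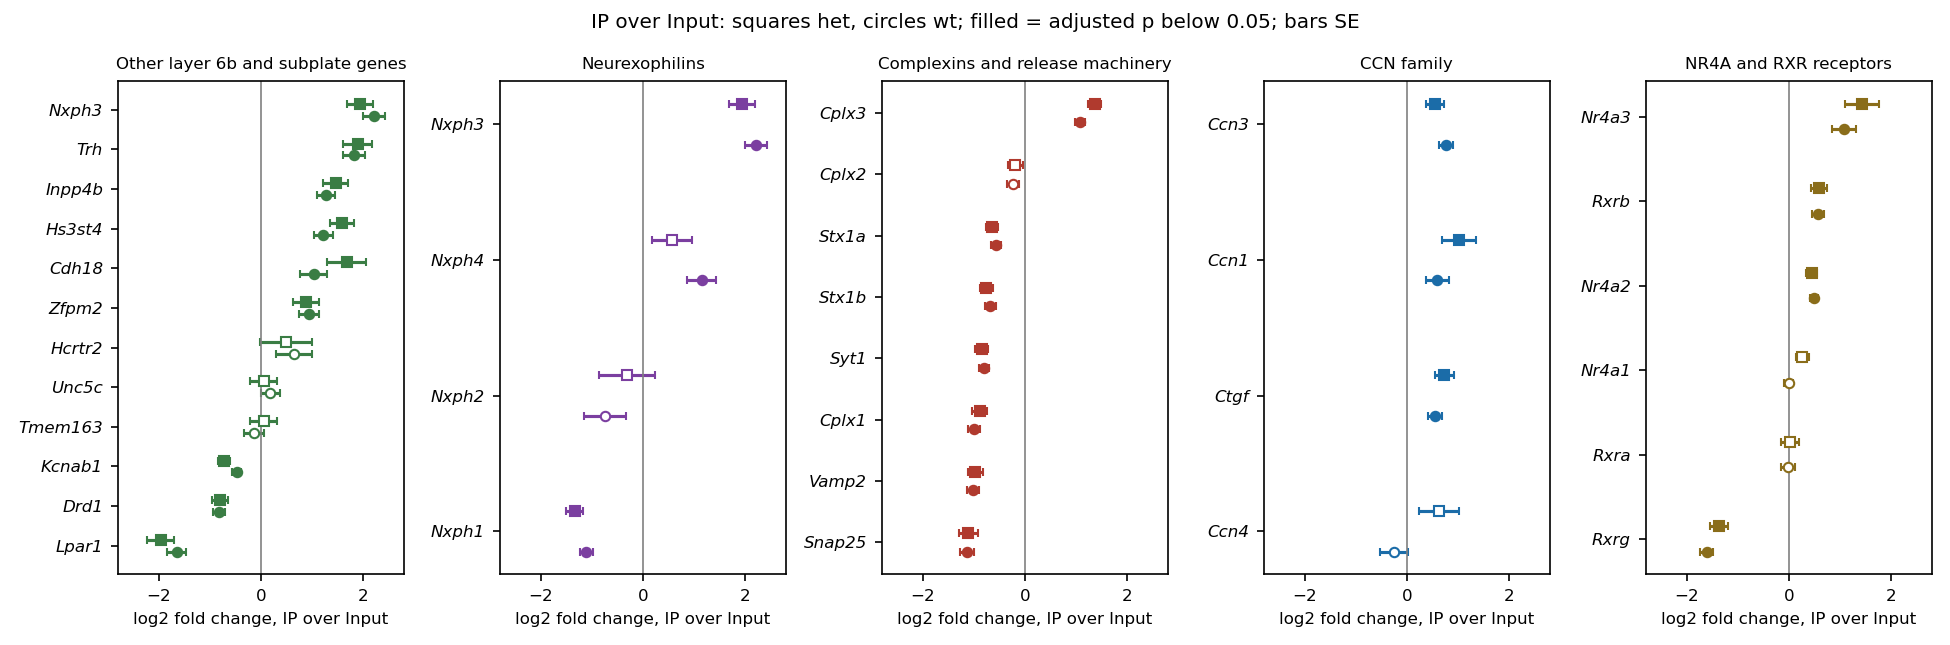
Log2 fold change of IP over Input (horizontal axis) for the tested genes of 5 groups (other layer 6b genes, neurexophilins, complexins and release machinery, CCN family, NR4A and RXR receptors), with squares for heterozygotes above circles for wild types, filled where the edgeR adjusted p is below 0.05 and with SE as bars. Cplx3 is the only filled point above 0 among complexins and release genes, and Lpar1 and Nxph1 lie lowest in their groups.

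The IP to Input change of 2 genes differed with the form of the animals' names, which is either BT with a number or a number alone. The labels do not say what the form stands for, and this comparison was added after the values were seen. It set 3 BT-named animals (hetBT13, wtBT13, wtBT14) against 5 with number-only names, in the fit with animal as a block. Cplx3 IP was 1.81 ± 0.196 times Input in BT-named animals and 2.60 ± 0.332 times in number-named ones (SD, n = 3 and 5). The Cplx3 ratios of the 2 name forms did not overlap, and the share of all genes that separate in this way was not counted. The log2 difference was -0.50 (SE 0.12, edgeR adjusted p = 0.0377). For Moxd1 the ratio was 0.209 ± 0.0728 in BT-named and 0.429 ± 0.111 in number-named animals, a log2 difference of -1.05 (SE 0.25, adjusted p = 0.0410). The Moxd1 ratios of the 2 name forms overlapped, since het786 at 0.265 lay below wtBT14 at 0.269.

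These 2 of the 5 genes passed as lower in BT-named animals, beside 0.71% of all genes tested, and 0 of the 5 passed as higher, beside 0.243%. The Cplx3 call was lost in 10 of 13 alternatives, including the omission of any 1 of the 8 animals (-0.55 to -0.46), and the Moxd1 call in 8 of 13, including 7 of those 8 omissions (-1.28 to -0.74). Nr4a2 leaned the other way, with a ratio of 1.54 ± 0.0543 in BT-named and 1.30 ± 0.0738 in number-named animals, but did not pass (0.23, edgeR adjusted p = 0.384). The Nr4a2 ratios of the 2 name forms did not overlap either, at 1.47 to 1.57 in BT-named and 1.26 to 1.43 in number-named animals. Ctgf (-0.24, adjusted p = 0.686) and Nxph4 (0.57, adjusted p = 0.667) did not pass. Of the layer 6 corticothalamic genes, 3 of 6 were lower in BT-named animals (Syt6 -0.84, Foxp2 -0.96, Rprm -0.53), and of the other layer 6b genes 0 of 12. The direction of IP against Input was the same in both name forms for all 5 genes.

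None of the 5 genes differed between heterozygotes and wild types past the threshold. In IP 0 of 5 were called by edgeR, beside 0% of 14755 genes tested, of which 604 had an unadjusted p below 0.05 and 3 were called by DESeq2. In Input Nxph4 was below the count filter and 0 of the 4 tested were called, beside 0% of 13870 genes, of which 979 had an unadjusted p below 0.05 and 0 were called by DESeq2. Heterozygous and wild-type libraries overlapped for all 5 genes in IP, beside 3.56% of genes tested without overlap, and for the 4 tested in Input, beside 5.3%.

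Cplx3 averaged 177 ± 47.8 CPM in heterozygous IP and 144 ± 28.0 CPM in wild-type IP (SD, n = 3 and 5), a log2 fold change of 0.29 (SE 0.18). The 95% interval of that fold ran from 0.937 to 1.59. In Input it averaged 67.4 ± 5.01 CPM in heterozygotes and 67.6 ± 5.62 CPM in wild types, with an interval from 0.858 to 1.18. The Cplx3 Input levels were thus bounded closely around equality, and the IP levels less so.

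Nr4a2 averaged 117 ± 18.5 CPM in heterozygous IP and 129 ± 18.0 CPM in wild-type IP, with an interval of the fold from 0.745 to 1.10. In Input it averaged 84.7 ± 3.74 CPM in heterozygotes and 91.8 ± 5.69 CPM in wild types (0.803 to 1.07). Immediate early genes, which respond to activity as Nr4a2 can, were lower on average in heterozygotes in 10 of 10 genes in IP (median log2 fold change -0.40) and 9 of 10 in Input (-0.65), beside medians of 0.00 and 0.01 over all genes, with none called. Since these genes respond to the same activity, they are not 10 independent observations. Their sum was 661 to 963 CPM in heterozygous IP against 799 to 1715 CPM in wild-type IP, and 753 to 1126 CPM in heterozygous Input against 898 to 2332.5 CPM in wild-type Input. Their part in the Nr4a2 levels was not tested.

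Ctgf averaged 37.8 ± 10.6 CPM in heterozygous IP and 34.5 ± 7.52 CPM in wild-type IP, with an interval of the fold from 0.801 to 1.47, and 22.5 ± 2.43 CPM in heterozygous Input against 23.5 ± 3.07 CPM in wild-type Input (0.774 to 1.21). Within name forms its heterozygous IP level was 77.9% of wild type in BT-named animals (1 against 2) and 124% in number-named ones (2 against 3), so the direction differed. Moxd1 averaged 14.4 ± 7.02 CPM in heterozygous IP and 15.8 ± 6.60 CPM in wild-type IP (0.533 to 1.52), and 44.5 ± 4.92 CPM in heterozygous Input against 44.9 ± 6.82 CPM in wild-type Input (0.821 to 1.22). Without het729 the heterozygous to wild-type log2 fold change in IP was -0.07 for Ctgf, 0.25 for Cplx3, -0.07 for Nr4a2 and -0.63 for Moxd1, and none passed.

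Nxph4 showed the largest average difference in IP. It averaged 3.53 ± 0.888 CPM in heterozygous IP and 5.49 ± 1.09 CPM in wild-type IP, 64.4% of the wild-type level, at 15 to 38 counts per library. Within name forms Nxph4 was at 64.7% in BT-named animals (1 heterozygote against 2 wild types) and 64.3% in number-named ones (2 against 3). The log2 fold change was -0.64 (SE 0.29, interval -1.26 to -0.03, unadjusted p = 0.0408 by edgeR), and after adjustment over all genes p was 0.981. The het786 IP library, at 4.41 CPM, lay above wtBT13 at 4.21 CPM, and without het729 the value was -0.47. In Input, Nxph4 averaged 2.29 ± 0.301 CPM in heterozygotes and 2.49 ± 0.892 CPM in wild types, at 5 to 13 counts per library, and this difference was not tested.

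Whether the genotype effect itself differed between IP and Input was tested in the joint fit, where 0 of 5 genes were called, beside 0% of 14797 genes tested, of which 454 had an unadjusted p below 0.05 and 0 were called by DESeq2. The log2 differences of effect were 0.28 for Cplx3, 0.19 for Ctgf, -0.04 for Nr4a2, -0.15 for Moxd1 and -0.58 for Nxph4, and each interval included 0. For Nxph4, which passed as higher in IP only in wild types, this interval ran from -1.59 to 0.44, so the enrichments of the genotypes were not shown to differ.

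**Figure D4:**
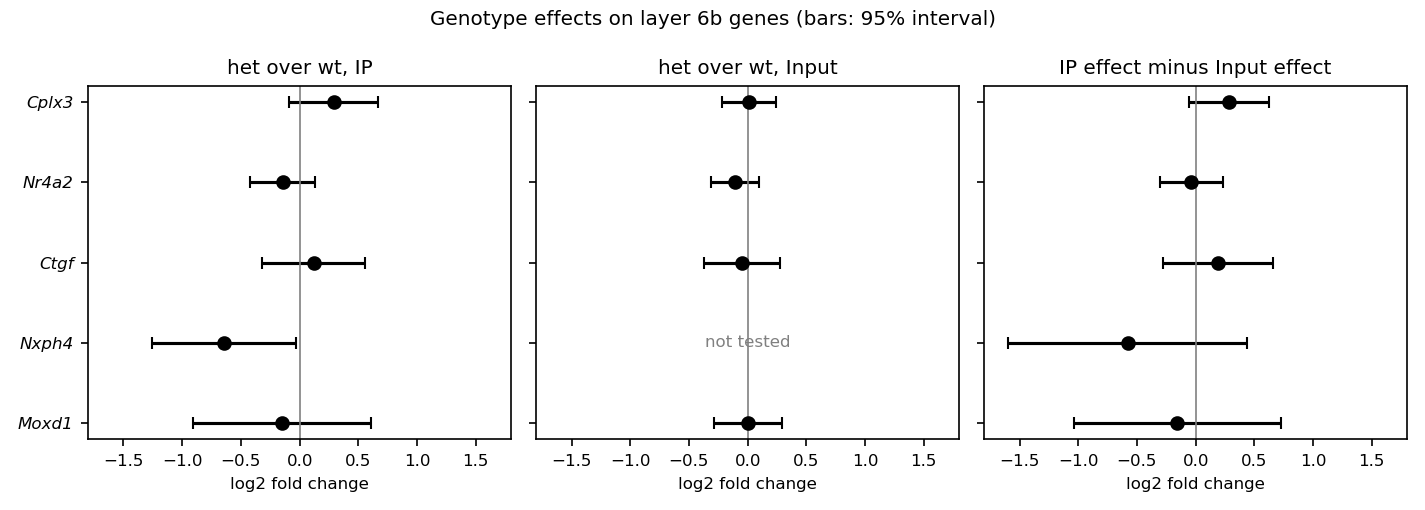
Log2 fold change of heterozygous over wild type (horizontal axes) for the 5 genes in IP and in Input, and the IP effect minus the Input effect, with 95% intervals as bars. Only the Nxph4 interval in IP, -1.26 to -0.03, lies clear of 0 before adjustment, and Nxph4 was not tested in Input.

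Across the 16 libraries the levels of the 5 genes varied together to different degrees. These correlations are descriptions on log2 CPM, and the libraries share 8 animals, the IP to Input split and the TMM scaling. Pearson's r was 0.86 for Ctgf with Cplx3, 0.71 for Nxph4 with Nr4a2 and 0.46 for Ctgf with Nr4a2. Moxd1 ran against the other 4, from -0.59 with Ctgf to -0.84 with Nr4a2.

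The genes closest in pattern over these libraries, among genes with a mean of at least 5 CPM (12182 others, or 12183 for Nxph4, which is itself below that level), were as follows. For Cplx3 they were Glra2, a glycine receptor subunit (r = 0.963), Tle4 (0.961) and Trbc1 (0.961). For Ctgf they were Khdrbs3 (0.880), Usp32 (0.874) and Fgf10 (0.867), and for Nxph4 they were Akap11 (0.924), Slc17a7, the vesicular glutamate transporter of cortical neurons (0.922), and Wdr46 (0.915). For Nr4a2 they were Dcn (0.956), Ptprd (0.954) and Lrp1 (0.951), and for Moxd1 they were the processed pseudogene Gm8648 (0.969), Ap1s2 (0.963) and Stx5a (0.961). Tle4 and Dcn are on the layer 6 and fibroblast lists described above.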

How the data were processed

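The deposited table holds the authors' raw counts of reads per gene, 20 libraries in all. Per the submitters' processing notes it was made with HTSeq and mm10, while aligner, annotation, HTSeq version and strand setting are not given in the sources used here. Smart-seq2 libraries were used per the labels' protocols. They mark neither strand nor molecules, so intervals cover counting error and the spread between animals only. Of 25317 identifiers, 24873 were matched to a symbol (GENCODE M21) and 444 were not.

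Counts were tested in R 4.3.3 with edgeR 4.0.16: filterByExpr (count minimum of 10), TMM, robust quasi-likelihood, adjusted p below 0.05 over all genes. IP against Input used 16 libraries with animal as a block, since the protocol takes both from 1 lysate. Same-animal deviations from group means correlated at 0.0699 to 0.292 over 12183 genes. In wtBT14 this was below the highest value with another animal of its genotype (0.0835 against 0.243) and in het786 barely above it (0.0699 against 0.0655), so the pairing rests on the protocol. Genotype was fitted per fraction. DESeq2 1.42.0 and other settings were alternatives. Fits were tested on simulated data. CPM are TMM-scaled over 20 libraries.

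The members and lists were chosen with earlier results of these data known. Named genes were the 5 members, up to 4 called genes of smallest p per list and comparison, relatives of a member, and the 3 genes of highest r. The 4 libraries ending in IX or IXX (het730, hetBT14) have no IP and entered 1 alternative only. Some genes of the lists are not reported here.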

Additional observations from a re-analysis of the deposited data

Results flagged for a closer look

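In wild-type Input, the Nr4a2 level of wt736, 82.0 CPM, lay far below the other 4 libraries, which ran from 92.5 to 96.3 CPM. It was the only library to stand apart in this way among 10 combinations of gene and group, and chance flags about 1 in 20 groups.

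The IP to Input change differed between BT-named and number-named animals, on the log2 scale by -0.50 for Cplx3 and -1.05 for Moxd1. The comparison was added after the values were seen. Of the 8 omissions of 1 animal, 8 lost the Cplx3 call and 7 the Moxd1 call.

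Some heterozygous Input libraries ending in IX or IXX, which no main comparison uses, lay above the highest wild-type Input library. For Ctgf, hetBT14IX had 34.4 CPM and hetBT14IXX 29.7 CPM, against a wild-type Input maximum of 28.5 CPM. For Cplx3 they had 92.6 and 87.5 CPM, against 74.1 CPM. For Nxph4, het730IXX had 4.74 CPM, hetBT14IX 4.32 CPM and hetBT14IXX 4.20 CPM, against 3.73 CPM. The IX and IXX libraries of an animal differed by more than sampling noise (chi-square per degree of freedom 2.49 for het730 and 1.88 for hetBT14).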

How the results depend on the processing

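Of 401 values of single members under the alternatives, 353 kept direction and side of the threshold, 19 lost a call and 29 changed sign. Every sign change belonged to a genotype effect that was not called. Scaling by library totals without TMM factors, chosen after the values were seen, moved the median log2 fold change of IP over Input to 0.30 in heterozygotes and 0.26 in wild types. It gave 5757 genes higher and 1900 lower in heterozygotes, and 6379 higher and 2377 lower in wild types, against 3348, 3274, 4223 and 3787 in the main analysis. The members' IP to Input calls were the same, and relative to that shift Nr4a2, at 0.71 in both genotypes, stayed above the median. The fit with no replicate block changed no member call (Cplx3 1.38 in heterozygotes and 1.10 in wild types, Ctgf 0.74 and 0.56) and gave 3088 genes higher and 3042 lower in heterozygotes.

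Without a filter on low counts, the difference of genotype effects had 9 genes higher and 2 lower, genotype in Input had 5 higher and 23 lower, and the name-form difference 112 higher and 246 lower. DESeq2 called 3 genes lower by genotype in IP. For the name-form difference, library totals gave 57 higher and 58 lower, and members lower were 1 with DESeq2 and 0 with library totals. Leaving out 1 animal gave 13 to 55 higher, 49 to 131 lower and 0 to 1 members lower.

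Genotype effects that changed sign had these log2 values. In Input, Cplx3 was -0.00572 without a filter and -0.0527 with library totals. Moxd1 in Input was -0.000603 with DESeq2, -0.0106 without a filter, -0.000197 with a count minimum of 30, -0.0560 with library totals and -0.0834 with the IX and IXX libraries, and Ctgf was 0.0421 with those libraries. The Nr4a2 difference of effects was 0.00216 with library totals. Leaving out 1 animal gave, in Input, -0.0527 to 0.0531 for Cplx3, -0.136 to 0.0120 for Ctgf and -0.101 to 0.0635 for Moxd1, and in IP -0.0716 to 0.324 for Ctgf and -0.628 to 0.0533 for Moxd1. The differences of effect then ran from -0.00640 to 0.326 for Ctgf, -0.495 to 0.0604 for Moxd1 and -0.137 to 0.0215 for Nr4a2. The cause was not tested. Nxph4 had 5 to 13 counts per Input library, and a count minimum of 30 left it untested in the joint fit.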
